A study of Mus musculus with 20 samples.

Results

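Akap3, Akap4, Ropn1, Ropn1l, Fscb, Spa17 and Cabyr encode proteins that build the sperm tail's fibrous sheath or dock to it. They were followed as 7 symbols of the 22066 in a count table of mouse testis RNA, by symbol alone, and all 7 were among the 16534 symbols with enough counts to be tested. The table held 20 libraries from NOD scid gamma (NSG) males, mice that lack the lymphocytes needed to reject human grafts and that the protocol gives as 6 weeks old. All 5 groups had 4 libraries each, and every group received either saline or vincristine sulfate, a drug that binds tubulin. NC was the normal control given saline. ALL carried B-cell acute lymphoblastic leukaemia (B-ALL) from 400000 patient-derived xenograft cells injected into the tail vein, and was given saline. VCR was given vincristine, and its labels name no injected cells. Low-VCR and High-VCR carried B-ALL with low or high infiltration of the peripheral blood and were given vincristine. The drug was given into the peritoneum at 0.5 mg/kg once a week for 3 weeks from day 69 after modelling. Mice dosed from day 69 were past 6 weeks of age by then, and the age at sampling is not given here. The labels call the material mixed testicular cells and do not say whether the libraries of a group are separate mice, and p-values therefore reflect the spread between libraries, which may be technical.

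The fibrous sheath is a cytoskeletal sleeve of the principal piece of the sperm tail. It surrounds the axoneme and the outer dense fibres, and is made of longitudinal columns joined by ribs. A-kinase anchoring proteins form much of its scaffold and hold protein kinase A near its targets, while germ cell forms of glycolytic enzymes are bound to it and make ATP along the tail. AKAP4 is the main structural protein and AKAP3 its partner. ROPN1, ROPN1L, SPA17 and CABYR carry a docking domain like that of the regulatory subunit of protein kinase A, through which such proteins bind anchoring proteins. FSCB is a calcium-binding protein that binds CABYR, and CABYR is itself a calcium-binding protein phosphorylated on tyrosine during capacitation, the change that makes sperm able to fertilize. Much of the RNA for sperm tail proteins is made during and after meiosis, in spermatocytes and round spermatids, and is kept for later translation in elongating spermatids.

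The 100 bases before the start site are shown for 6 of the members because 3 of them hold the same short element there. Sequences are from RefSeq on build GRCm38.p6, matched by symbol (6 of 7 matched), and are written 5′ to 3′ on the gene's strand with TGATGTCA in capitals.
Akap3 (chr6:126852998-126853097, + strand): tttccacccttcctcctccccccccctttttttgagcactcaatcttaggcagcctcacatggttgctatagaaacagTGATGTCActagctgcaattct
Akap4 (chrX:7067415-7067514, + strand): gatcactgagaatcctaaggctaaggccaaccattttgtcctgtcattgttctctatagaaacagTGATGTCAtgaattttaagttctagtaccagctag
Fscb (chr12:64474899-64474998, - strand): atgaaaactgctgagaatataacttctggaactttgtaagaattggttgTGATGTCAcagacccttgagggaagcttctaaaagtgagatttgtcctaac
Ropn1 (chr16:34651111-34651210, + strand): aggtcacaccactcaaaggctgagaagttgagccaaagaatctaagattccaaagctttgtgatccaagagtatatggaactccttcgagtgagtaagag
Ropn1l (chr15:31453690-31453789, - strand): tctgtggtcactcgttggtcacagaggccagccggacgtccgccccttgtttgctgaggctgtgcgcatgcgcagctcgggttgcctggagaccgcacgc
Spa17 (chr9:37613722-37613821, - strand): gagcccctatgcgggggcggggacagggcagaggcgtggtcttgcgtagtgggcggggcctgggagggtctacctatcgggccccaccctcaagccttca
The TGATGTCA of Akap3, Akap4 and Fscb differs at 1 base from TGACGTCA, the palindromic cAMP response element. It was chosen after these windows had been read. TGATGTCA, searched on both strands, was in 962 of 32851 RefSeq windows of 250 bases before a start site (2.93%), and TGACGTCA in 508 of them (1.55%). Akap3 and Akap4 also share a run of 20 bases, ctatagaaacagtgatgtca, that ends in the element and occurs in 2 of the 32851 windows. Those 2 are the windows of Akap3 and Akap4, from which the run was taken. The next longest run shared by members had 10 bases (gtgatgtcac, Akap3 and Fscb). GC content ranged from 38% in Fscb and 39% in Akap4 to 66% in Ropn1l and 70% in Spa17. Akap4 had a second entry without the element. A match describes letters only, and no binding was measured.

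High-VCR libraries held 13.1 to 16.4 M (mega) counts each and Low-VCR libraries 13 to 13.9 M. Those of VCR held 10.6 to 14 M, those of NC 9.43 to 15 M and those of ALL 10.3 to 11.8 M. The 7 members took 0.648 to 0.711% of a library's counts in NC and 0.659 to 0.711% in ALL. Their share was 0.391 to 0.486% in Low-VCR, 0.236 to 0.402% in High-VCR and 0.014 to 0.292% in VCR. Mitochondrial transcripts took 1.78 to 2.6% of counts in the saline groups and 4.69 to 11.9% in the vincristine groups. VCR 1 had the lowest member share of all 20 libraries (0.014%) and the highest mitochondrial share (11.9%). It stood apart from every other library: its members were at 1.03 to 2.72% of the NC means. Results of comparisons that include VCR, and the descriptions that VCR 1 moves most, are therefore given with and without it. The other comparisons were not rerun without VCR 1 alone, although it also enters the spread in the fit over all 20 libraries. Values below are CPM, counts relative to the library's total, scaled by TMM (edgeR's trimmed mean method) and not corrected for length. Divided by exon length, Ropn1l had the highest level in NC, 1590 CPM per kb (its uncorrected level was 1520 ± 97.2 CPM, SD, n = 4). Akap4 followed at 1160 ± 70.4, Spa17 at 785 ± 101, Ropn1 at 355 ± 19.2, Akap3 at 185 ± 3.74, Fscb at 174 ± 12 and Cabyr at 83.4 ± 4.47 CPM per kb. The values of the neighbours Akap3 and Fscb lay within their spread.

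Akap4, the main scaffold protein, was at 3760, 3310, 3640 and 3380 CPM in NC and 3710, 3460, 3590 and 3520 CPM in ALL. It was at 36.3, 510, 1240 and 781 CPM in VCR, 1830, 2400, 1420 and 2490 CPM in Low-VCR and 1170, 1770, 2120 and 1140 CPM in High-VCR. Each vincristine library lay below each saline library, and Low-VCR and High-VCR overlapped. Its partner Akap3 was at 594, 579, 592 and 569 CPM in NC, 652, 577, 596 and 576 CPM in ALL and 6.86, 79.7, 158 and 114 CPM in VCR. It was at 351, 314, 331 and 253 CPM in Low-VCR and 140, 136, 240 and 158 CPM in High-VCR. For Akap3, unlike Akap4, the values of Low-VCR and High-VCR did not overlap: the lowest Low-VCR library was above the highest High-VCR library, which held for 4.94% of all tested genes.

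Ropn1, which encodes ropporin, was at 485, 508, 470 and 446 CPM in NC, 564, 524, 491 and 467 CPM in ALL and 5.18, 55.4, 114 and 82.1 CPM in VCR. It was at 262, 274, 272 and 224 CPM in Low-VCR and 118, 125, 195 and 110 CPM in High-VCR, so that these groups were apart as for Akap3. Its relative Ropn1l was at 1640, 1460, 1420 and 1540 CPM in NC, 1600, 1400, 1490 and 1450 CPM in ALL and 41.3, 245, 646 and 493 CPM in VCR. In Low-VCR it was at 825, 852, 721 and 689 CPM, and in High-VCR at 259, 853, 501 and 354 CPM, where the High-VCR 2 library alone reached the Low-VCR level. Spa17 was at 877, 712, 784 and 958 CPM in NC, 918, 848, 803 and 749 CPM in ALL and 15.1, 123, 308 and 224 CPM in VCR. It was at 424, 561, 403 and 416 CPM in Low-VCR and 201, 401, 379 and 240 CPM in High-VCR, so that those groups were just apart. Spa17 shares 391 exon bases with Siae on the opposite strand in GENCODE M21, and the strand setting of the authors' counting is not given in the sources used here, so its level is uncertain.

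Fscb was at 586, 577, 640 and 542 CPM in NC, 570, 577, 565 and 555 CPM in ALL and 6.09, 83.5, 197 and 115 CPM in VCR. It was at 357, 391, 285 and 361 CPM in Low-VCR and 181, 273, 334 and 200 CPM in High-VCR, which overlapped. Cabyr was at 221, 204, 213 and 196 CPM in NC, 197, 178, 175 and 174 CPM in ALL and 2.36, 23.5, 18.8 and 13.9 CPM in VCR. In Low-VCR it was at 114, 58.9, 128 and 25.6 CPM and in High-VCR at 18.6, 13.9, 27.7 and 13.5 CPM. Cabyr had the widest spread of the 7 members in Low-VCR relative to its mean (81.5 ± 47.6 CPM, SD, n = 4), and it was at 18.4 ± 6.6 CPM in High-VCR and 14.6 ± 9.07 CPM in VCR, or 8.83% and 7.02% of its NC mean (8.98% in VCR without VCR 1). Akap4 was at 44.1% and 18.2% of its NC mean in the same groups (24% in VCR without VCR 1). Group means had the same order in all 7 members: NC and ALL, whose ranges overlapped, were highest, followed by Low-VCR, High-VCR and VCR. For Cabyr the order of the last 2 groups rested on VCR 1, since VCR without it (8.98%) was not below High-VCR (8.83%).

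**Figure D1:**
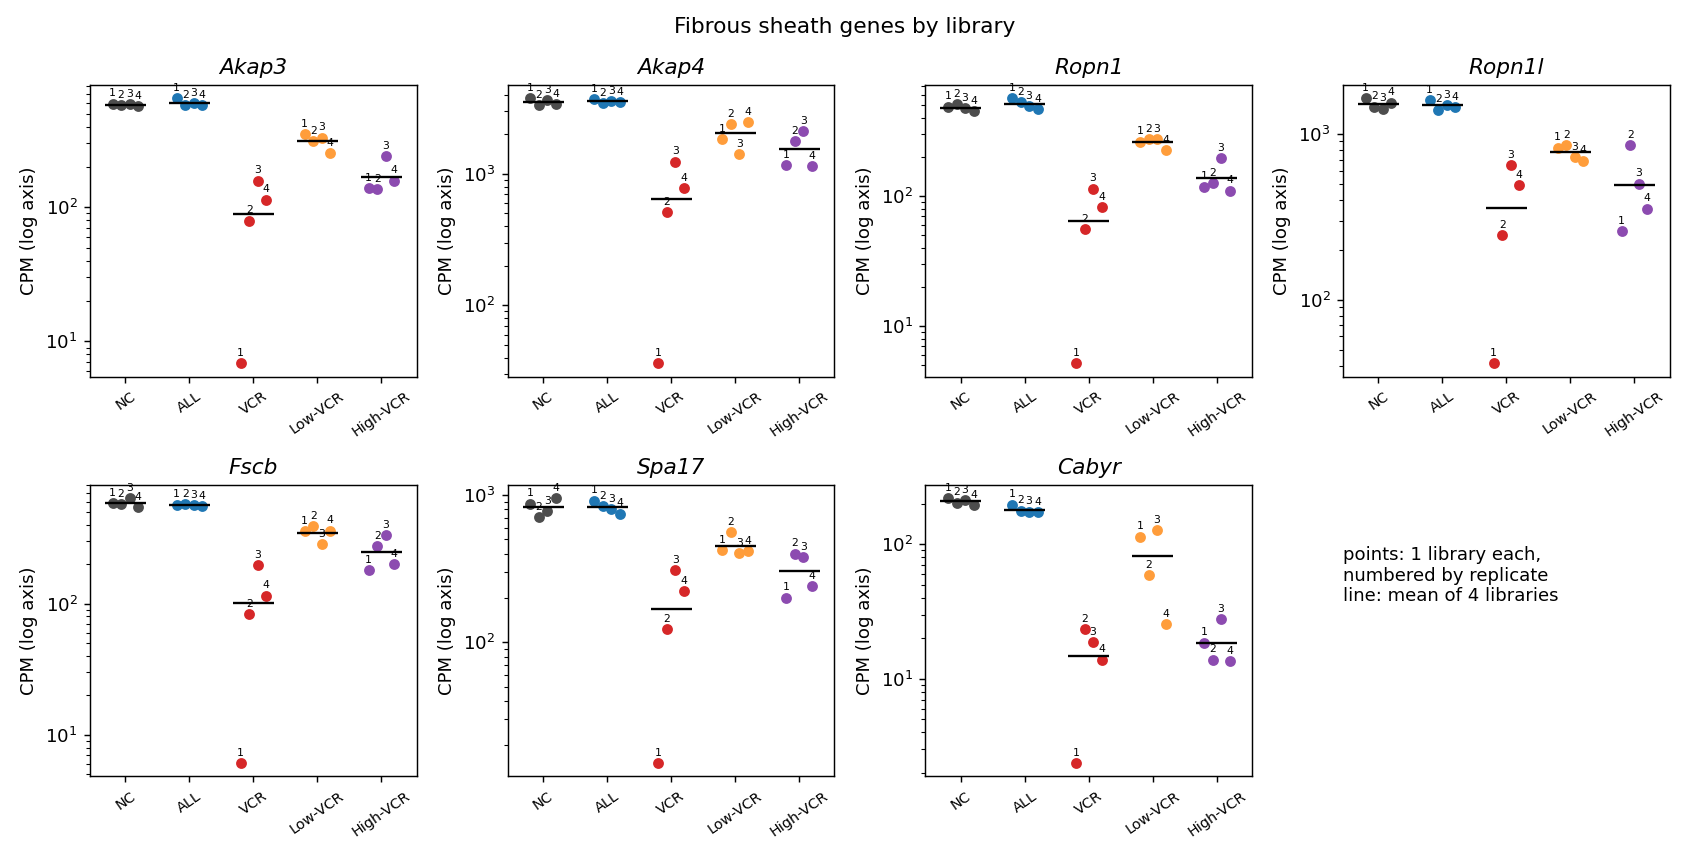
CPM of each fibrous sheath gene on a log axis, with 1 point per library numbered by replicate and a line at the mean of 4 libraries in each group (from left to right NC, ALL, then the 3 vincristine groups). The saline groups lie highest, VCR 1 lies lowest in every panel (2.36 CPM for Cabyr, 36.3 CPM for Akap4), and the Low-VCR points of Cabyr spread from 25.6 to 128 CPM.

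Leukaemia without drug was compared with the normal control. These groups also differ in the range of their library numbers, and this cannot be told apart from engraftment. No change was detected in the 7 members: 0 passed an adjusted p under 0.05 in edgeR's quasi-likelihood test, 0 had an unadjusted p under 0.05, and log2 fold changes ran from -0.21 ± 0.48 (SE) for Cabyr to 0.1 ± 0.49 for Ropn1. Over all tested genes 0% were called in this comparison, with 748 at an unadjusted p under 0.05. The SE come from a fit of all 20 libraries, the widely spread VCR group included. In a fit of NC and ALL alone 0 of 7 were called, and Cabyr was at -0.19 (adjusted p = 0.174 by edgeR). For Cabyr the means were 209 ± 11.2 CPM in NC and 181 ± 10.5 CPM in ALL. The ALL and NC ranges overlapped in all 7 members, including Cabyr, whose highest ALL library (197 CPM) was above the lowest NC library (196 CPM).

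VCR was compared with the normal control, and all 7 members fell, with no overlap between the groups. The share of all tested genes called lower was 35.6%, and 42.1% were called higher. VCR lay below NC without overlap in 34.2% of tested genes, so neither a call nor a gap by itself sets the members much apart. Their fold changes were large beside the median of all genes, 0.1 on the log2 scale, with a median of -2.55. Cabyr had the largest change of the 7 and fell by 3.83 ± 0.54 on the log2 scale (SE, 14.2-fold lower, adjusted p = 7.05e-06 by edgeR), and was left at 7.02% of its NC mean. Ropn1 fell by 2.9 ± 0.52 (7.45-fold, adjusted p = 8.8e-05) and Akap3 by 2.7 ± 0.53 (6.5-fold, adjusted p = 0.000189). Fscb fell by 2.55 ± 0.56, Akap4 by 2.45 ± 0.59 and Spa17 by 2.31 ± 0.53, which are 5.84-fold, 5.48-fold and 4.97-fold. Ropn1l had the smallest change and fell by 2.09 ± 0.52 (4.25-fold, adjusted p = 0.00161), and kept 23.5% of its NC mean (30.4% without VCR 1). Without VCR 1 all 7 members were still called, at -3.47 for Cabyr, -2.51 for Ropn1, -2.31 for Akap3, -2.15 for Fscb, -2.06 for Akap4, -1.93 for Spa17 and -1.71 for Ropn1l. In these testis libraries, fewer cells of a type and less RNA per cell cannot be told apart. Elongating spermatid markers fell with the members in 10 of 10 genes (median -2.31), and their summed level was 17200 to 21600 CPM in NC and 259 to 8490 CPM in VCR. Round spermatid markers fell in 10 of 10 (median -4.06, 3330 to 3610 against 41 to 1010 CPM), and pachytene spermatocyte markers in 8 of 10 (4680 to 4960 against 161 to 2920 CPM). Sertoli cell markers rose in 12 of 12 (1970 to 2270 against 8160 to 12500 CPM). Without VCR 1 these counts were 10, 10, 7 and 12, with medians of -1.91, -3.66, -1.3 and 1.81. No marker was at 0 in a whole group, and the part of these cell types, or of the mitochondrial share given above, in the members' fall was not tested.

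In engrafted mice, vincristine was compared with ALL at low and at high infiltration. With high infiltration 5 of 7 members fell (background 30.5% of tested genes lower), and no High-VCR library overlapped an ALL library in any of the 7, as in 29.1% of all tested genes with High-VCR lower. Cabyr fell by 3.3 ± 0.53 on the log2 scale (9.82-fold, adjusted p = 3.06e-05 by edgeR), Ropn1 by 1.9 ± 0.5 (3.74-fold, adjusted p = 0.00282) and Akap3 by 1.83 ± 0.51 (3.56-fold, adjusted p = 0.00413). Ropn1l fell by 1.6 ± 0.52 (3.02-fold, adjusted p = 0.0107) and Spa17 by 1.44 ± 0.51 (2.72-fold, adjusted p = 0.0183). Akap4 and Fscb did not pass, both at -1.2 (SE 0.57 and 0.54), with adjusted p = 0.064 and 0.0533. In a fit of High-VCR and ALL alone both passed, at -1.45 each with adjusted p = 0.000428 and 0.000193. The call of Spa17 was lost without High-VCR 1 (adjusted p = 0.0565) or without High-VCR 4 (adjusted p = 0.0507).

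With low infiltration the members lay at 39.1 to 59.5% of their NC means, and again no Low-VCR library overlapped an ALL library in any of the 7, as in 29.4% of all tested genes with Low-VCR lower. None passed in the fit over all 20 libraries: 0 of 7 were called (1 at an unadjusted p under 0.05), while 15.2% of tested genes were called lower. The log2 fold changes were -1.15 ± 0.49 for Cabyr (adjusted p = 0.0567), -0.99 ± 0.49 for Ropn1, -0.95 ± 0.51 for Ropn1l and -0.94 ± 0.5 for Akap3. They were -0.88 ± 0.51 for Spa17, -0.81 ± 0.56 for Akap4 and -0.7 ± 0.53 for Fscb (adjusted p = 0.256). In a fit of Low-VCR and ALL alone all 7 passed, at nearly the same fold changes, with adjusted p from 1.73e-05 for Ropn1 to 0.0381 for Cabyr. DESeq2 called 5 of the 7. All 7 also passed in a fit of the engrafted groups with the libraries' number range as a term, each engrafted group having 2 libraries in each of 2 ranges of library numbers. The share of all genes called in these alternative fits is not given, so their counts have no background beside them. In the fit over all 20 libraries the elongating spermatid markers were lower in 1 of 10 genes with low infiltration (median -0.79). They were lower in 2 of 10 with high infiltration (median -1.15). The round spermatid markers were lower in 3 of 10 (median -1.25) and 10 of 10 (median -3.54). Sertoli cell markers were higher in 12 of 12 in both. Of all tested genes, 36.4% were called higher with low infiltration and 42.4% with high infiltration.

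**Figure D2:**
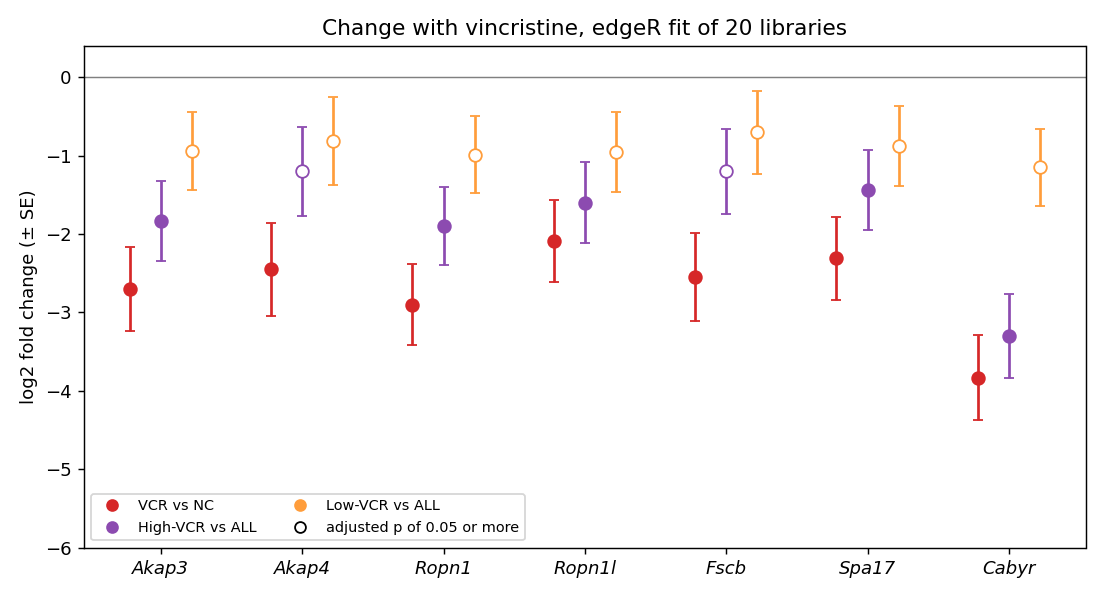
Log2 fold change of each gene with its SE (edgeR fit of 20 libraries, n = 4 per group) in VCR against NC, High-VCR against ALL and Low-VCR against ALL, with open points where the adjusted p was 0.05 or more. The largest change of each gene is that in VCR, and Cabyr lies below the other members both in VCR (-3.83) and in High-VCR (-3.3).

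The infiltration groups were compared with each other. Cabyr was the member called lower in High-VCR than in Low-VCR, by -2.15 ± 0.51 on the log2 scale (4.43-fold, adjusted p = 0.0245 by edgeR), against a background of 4.69% of tested genes. The groups overlapped for Cabyr, since High-VCR 3 (27.7 CPM) was above Low-VCR 4 (25.6 CPM). The call was lost in a fit of these groups alone (adjusted p = 0.0748) and without Low-VCR 1, Low-VCR 3, High-VCR 1 or High-VCR 4 (adjusted p = 0.0766, 0.0854, 0.0808 and 0.0903). Ropn1 and Akap3 did not pass at -0.92 ± 0.49 (adjusted p = 0.236) and -0.89 ± 0.5 (adjusted p = 0.26), although their groups did not overlap. Both passed in the fit of the engrafted groups with the number range as a term (adjusted p = 0.0261 for each). That fit also leaves out NC and VCR, and the part of the term alone was not tested. The other members ran from -0.65 for Ropn1l to -0.39 for Akap4. Round spermatid markers were lower in High-VCR in 6 of 10 genes (median -2.18) and elongating spermatid markers in 0 of 10 (median -0.41).

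Low-VCR had more RNA of 6 of 7 members than VCR (background 16.7% of tested genes higher). Cabyr was higher by 2.47 ± 0.51 on the log2 scale (adjusted p = 0.00432 by edgeR), Ropn1 by 2.01 ± 0.51, Akap3 and Fscb by 1.8 (SE 0.51 and 0.55), Akap4 by 1.66 ± 0.57 and Spa17 by 1.43 ± 0.51. Ropn1l did not pass at 1.11 ± 0.51 (adjusted p = 0.101). Without VCR 1 the same count of 6 was called at smaller differences, from 1.05 for Spa17 to 2.12 for Cabyr. Without VCR 2 it was 2, and in a fit of these groups alone 0, with adjusted p from 0.101 to 0.192 for the 6. These groups also differ in library number range and in whether their labels name injected cells, and these cannot be told apart. High-VCR against VCR gave 0 of 7 calls with differences from 0.33 to 1.3 (3 at an unadjusted p under 0.05, background 0.00605% higher), and Cabyr turned to -0.03 without VCR 1. The test of whether Low-VCR differed from ALL as VCR did from NC called Cabyr (2.68 ± 0.7, adjusted p = 0.0425) and none of the other 6, with a background of 3.81% of tested genes higher. The call was lost in a fit of these groups alone (adjusted p = 0.0504), with voom (adjusted p = 0.0594), with Sertoli scaling (adjusted p = 0.066) and with the replicate block (adjusted p = 0.077). It was also lost without any single NC or ALL library (adjusted p from 0.0628 to 0.0837), and without VCR 2, Low-VCR 3 or Low-VCR 1 (adjusted p = 0.0587, 0.085 and 0.0903). Without VCR 1 the test called 5 of 7, and without VCR 3 it called 4. The share of all genes called in those refits is not given, so these counts have no background beside them. The same test with high infiltration called 0 of 7 (background 0.00605% higher), at 0.49 to 1.35 with adjusted p = 0.97, and High-VCR against VCR and this test also called 0 without VCR 1. These comparisons share the VCR, NC and ALL libraries.

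The 4 other structural partners of the sheath on the list followed the members in VCR against NC, where 4 of 4 fell (median -3.24). The background was 35.6% of tested genes lower. Akap14, a further anchoring protein, fell by 4.06 ± 0.61 (adjusted p = 1.31e-05 by edgeR), from 30 ± 4.9 CPM in NC to 1.79 ± 1.11 CPM in VCR (SD, n = 4). Fsip1, a fibrous sheath interacting protein, fell by 3.75 ± 0.53 (adjusted p = 6.4e-06), from 56.8 ± 4.41 to 4.2 ± 2.64 CPM. Both were also lower in High-VCR than in Low-VCR, as Cabyr was: Akap14 by -2.6 ± 0.57 (adjusted p = 0.0215) and Fsip1 by -1.92 ± 0.49 (adjusted p = 0.0286). These groups overlapped for both. The lowest Low-VCR library was at 2.32 CPM for Akap14 and 8.42 CPM for Fsip1, and the highest High-VCR library at 2.83 and 10.8 CPM. The partners Fsip2 (-1.22 ± 0.52) and Rhpn1 (-0.15 ± 0.38) did not pass there. These calls were not rerun under the alternatives. Of the partners 1 of 4 fell in Low-VCR against ALL (background 15.2%) and 4 of 4 in High-VCR against ALL (background 30.5%). Against the same backgrounds, the germ cell glycolytic enzymes fell in 6 of 6 genes in VCR against NC (median -2.17). They fell in 0 of 6 in Low-VCR against ALL and in 4 of 6 in High-VCR against ALL. Aldoart1, a sperm aldolase, fell by 2.9 ± 0.58 in VCR (adjusted p = 0.000227) and Eno4, a sperm enolase, fell by 2.05 ± 0.47 (adjusted p = 0.000814).

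Of the protein kinase A and cAMP genes, 4 of 8 fell and 2 rose in VCR against NC, where 35.6% of all tested genes were called lower and 42.1% higher. Pde4a, a phosphodiesterase that breaks down cAMP, fell by 4.19 ± 0.52 (adjusted p = 1.74e-06 by edgeR), from 140 ± 11.3 to 7.66 ± 3.62 CPM (SD, n = 4). Prkacb, a catalytic subunit of protein kinase A, was higher by 1.98 ± 0.26 (adjusted p = 2.58e-06), at 4.62 ± 1.59 CPM in NC and 18.4 ± 6.05 CPM in VCR. Scaled to Sertoli cell markers, a scaling that moved the median of all genes by -1.9, its difference was 0.03 (adjusted p = 0.899). Of 11 measured anchoring proteins outside the sheath, 4 rose and 4 fell (median 0.2), which is near those shares of all genes. Akap10 fell by 1.79 ± 0.17 (adjusted p = 8.58e-08) and Akap13 was higher by 1.25 ± 0.15 (adjusted p = 1.28e-06), a direction that turned to -0.67 under the Sertoli scaling. The 7 sheath genes were lower in VCR under every scaling tried, but Sertoli scaling could only lower them further. The other scalings moved the median of all genes by 0.39 (library size) and -0.12 (DESeq2 size factors), less than the fall of any member. No scaling tried could therefore have turned their direction. Without VCR 1 all 8 genes named from these lists were still called, at -3.7 for Akap14, -3.43 for Fsip1, -2.5 for Aldoart1, -1.71 for Eno4, -3.97 for Pde4a, 1.76 for Prkacb, -1.66 for Akap10 and 1.15 for Akap13.

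The members did not share a single course over the 20 libraries. With each gene's log2 CPM set to 0 at its NC mean, the root mean square difference between members was smallest for Akap4 and Fscb (0.119) and for Akap3 and Ropn1 (0.123), followed by Ropn1l and Spa17 (0.253). Cabyr was 1.024 to 1.374 from each of the other 6. Without VCR 1 the first 2 pairs were at 0.122 and 0.124 and Cabyr at 1.051 to 1.409, while Fscb and Spa17 (0.219) came next. The same distance was taken to the mean course of 3 germ cell marker lists, a description added after the data had been seen. Akap4, Fscb and Spa17 were nearest to the elongating spermatid list (0.2, 0.25 and 0.32), as were Akap3 and Ropn1 at a larger distance (0.49 each). Ropn1l was nearest to the pachytene to diplotene spermatocyte list (0.33). Cabyr was nearest to the round spermatid list (0.33) and far from the elongating list (1.5). Without VCR 1 the nearest list of every member was as before, with Cabyr at 0.27 from the round and Akap4 at 0.19 from the elongating list. Spa17 was then almost as near to the pachytene to diplotene list (0.34) as to the elongating list (0.3). Akap3 and Ropn1 were at 0.5 each from the elongating list, and at 0.6 and 0.64 from the pachytene to diplotene list.

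**Figure D3:**
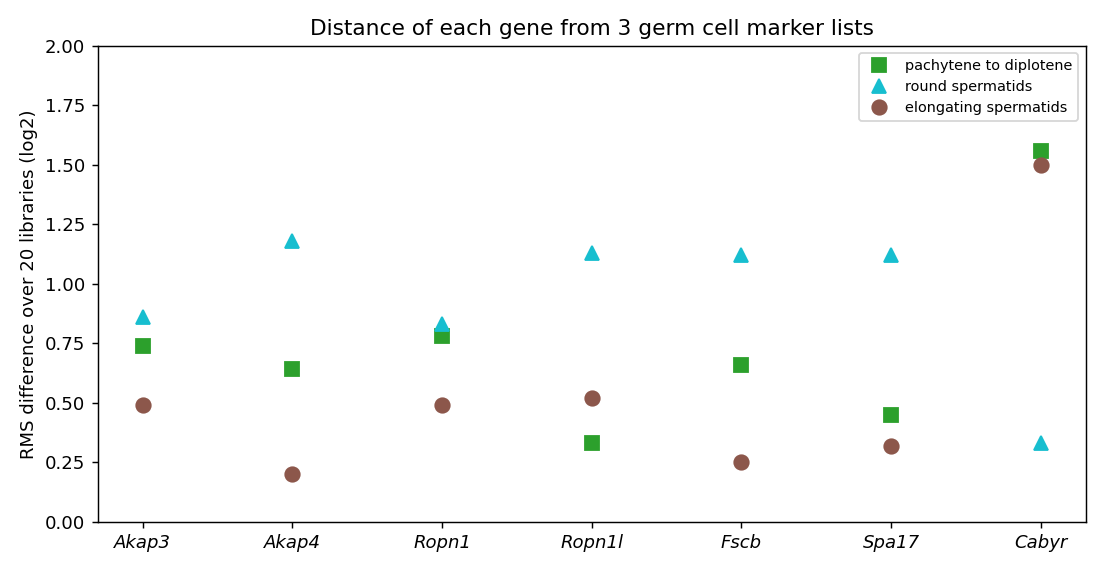
Root mean square difference over 20 libraries, on the log2 scale, between each fibrous sheath gene and the mean course of 3 germ cell marker lists (squares pachytene to diplotene, triangles round spermatids, circles elongating spermatids). Akap4 lies nearest the elongating list at 0.2, and Cabyr is the only gene whose lowest symbol is the round spermatid list, at 0.33.

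The Low-VCR libraries are given singly for Akap4 and Cabyr, the members furthest apart over these same 20 libraries, so the values describe that distance and add no support to it. In Low-VCR 2 and Low-VCR 4 the elongating list was at -0.26 and -0.36 from NC on the log2 scale and the round list at -1.91 and -2.67. Akap4 was at -0.55 and -0.5 there, and Cabyr at -1.82 and -3.02. In Low-VCR 1 and Low-VCR 3 the elongating list was at -0.87 and -1.1 and the round list at -0.86 and -0.77, with Akap4 at -0.94 and -1.3 and Cabyr at -0.88 and -0.7. The difference Akap4 minus Cabyr was 2.33 ± 0.43 in High-VCR, 0.78 ± 1.4 in Low-VCR and 0.97 ± 1.04 in VCR, beside 0 ± 0.04 in NC and 0.23 ± 0.05 in ALL (SD, n = 4). Without VCR 1 it was 1.35 ± 0.86 in VCR (n = 3). The High-VCR values, 1.89 to 2.91, lay above all those of NC and ALL. The elongating list minus the round list was 2.12 ± 0.41, 0.9 ± 1.28, 1.26 ± 0.55, 0 ± 0.14 and 0.28 ± 0.07 in the same order of groups.

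**Figure D4:**
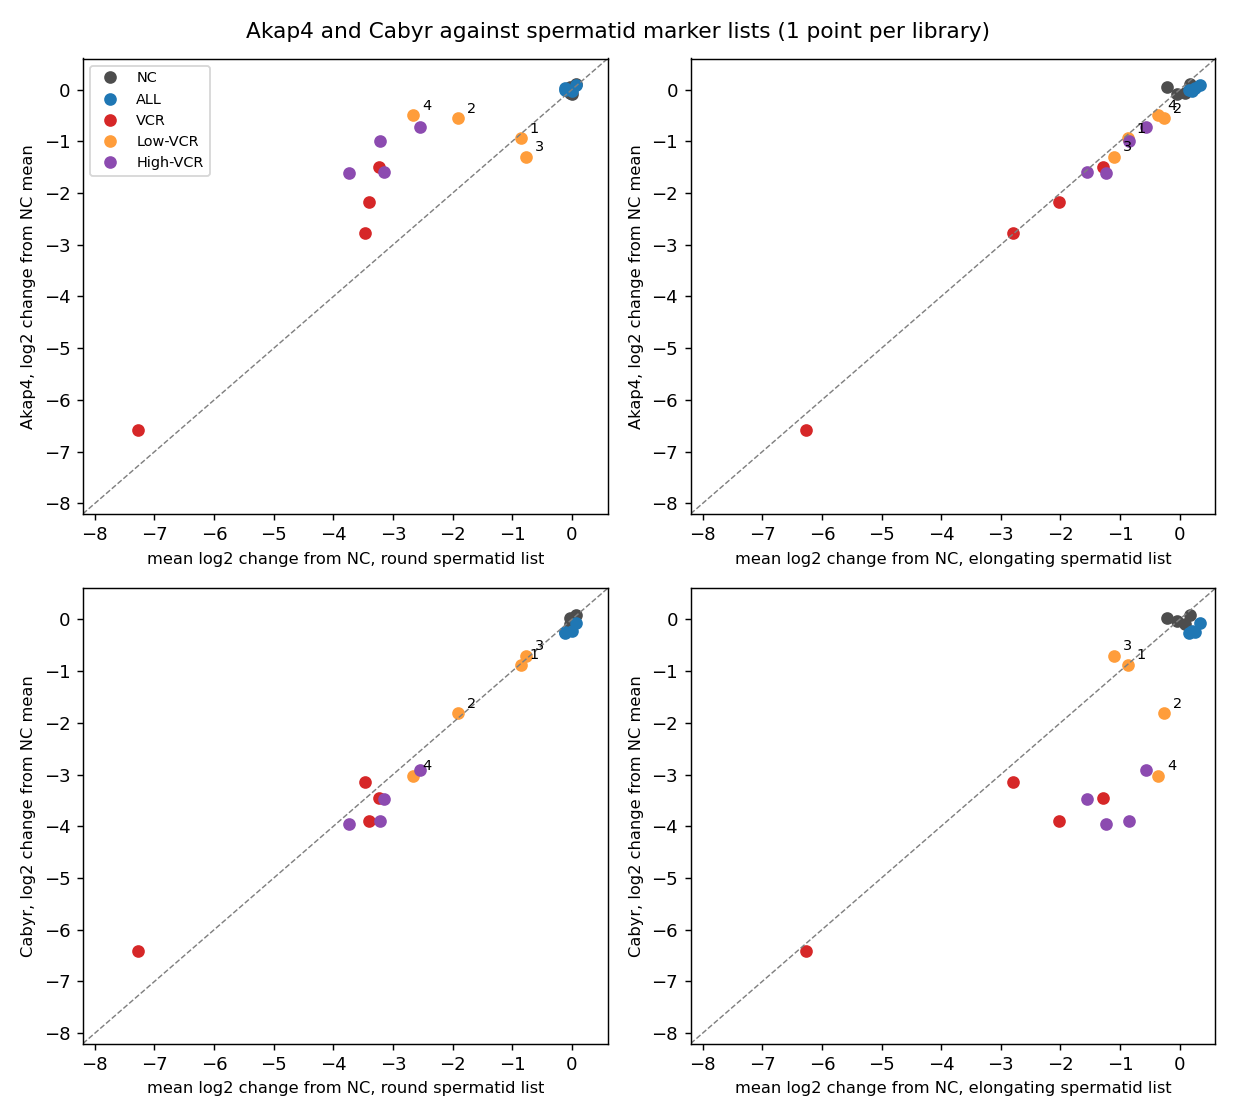
Log2 change from the NC mean of Akap4 (top) and Cabyr (bottom) against the mean change of the round (left) and elongating (right) spermatid lists, with 1 point per library, Low-VCR libraries numbered and the dashed line marking equal change. Akap4 points follow the line with the elongating list and Cabyr points with the round list, and Low-VCR 2 and 4 lie away from the line in the other panels.

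Each member was also set against the mean of 20 round and elongating spermatid markers in each library, by an exact two-sided permutation test of 4 against 4 libraries, adjusted over 49 tests. The smallest p this design allows is 0.0286, and 13 of the 49 tests reached it, but none passed after adjustment (adjusted p = 0.108). A test at this floor passes adjustment only if a large share of the 49 reach it, so the failure to pass says little. Ropn1l was higher relative to these markers in VCR than in NC by 1.05 on the log2 scale and Spa17 by 0.76 (0.88 and 0.68 without VCR 1). In High-VCR against ALL, Fscb was higher by 0.97 and Akap4 by 0.95, whereas Cabyr was lower by 1.15 (-1.15). Cabyr (-0.3) and Ropn1l (-0.13) also reached the floor in ALL against NC, where Ropn1l was at 0.01 against the round list alone. Against the elongating list alone the differences of Ropn1l and Spa17 in VCR were 0.42 and 0.13, and those of Akap4 and Fscb in High-VCR 0.03 and 0.04, while against the round list alone that of Cabyr was -0.22.

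Among 14803 other named genes whose mean was 1 CPM or more, Akap4 was nearest in course to Cep85l (0.081) and Ubqlnl (0.114), and Fscb to Cep85l (0.121) and Ankef1 (0.123). Akap3 was nearest to Dpysl3 (0.103) and Erich3 (0.111), and Ropn1 to Gstt4 (0.083) and Ddi1 (0.087). Ropn1l was nearest to Smco2 (0.091) and Oscp1 (0.103). Spa17 was nearest to Odf2 (0.138), which encodes a main protein of the outer dense fibres, and to Pudp (0.159). Cabyr was nearest to Rfx4 (0.161) and Efcab9 (0.173), a sensor of the CatSper calcium channel of the principal piece. Efcab9 was at 157 ± 11 CPM in NC, 65.5 ± 41.1 CPM in Low-VCR and 13.4 ± 6.92 CPM in High-VCR, and Odf2 at 1470 ± 97.1, 810 ± 98.5 and 575 ± 211 CPM (SD, n = 4). Values in parentheses are root mean square log2 differences over 20 libraries. Without VCR 1 the first named gene of Akap3, Akap4 and Ropn1 was again the nearest, and those of Ropn1l and Cabyr ranked 2. For Fscb and Spa17 they ranked 4 and 6, with Pdzk1 and Morn2 nearest.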

How the data were processed

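Testis poly(A) RNA of 20 samples was sequenced from directional libraries, per the labels' protocols. The authors deposited a table of raw counts, whole numbers for each gene symbol. The submitters' processing notes name Trimmomatic 0.39, STAR 2.7.10b, featureCounts of Subread 2.0.3, DESeq2 1.36.0 and the build GRCm39. Their roles, the annotation, the strand setting and any removal of human reads are not given in the sources used here.

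Samples were grouped by their titles. Symbols passing edgeR's filterByExpr (minimum count 10) were fitted in R 4.3.3 with edgeR 4.0.16 (TMM, robust quasi-likelihood, 5 group means, 20 libraries) and limma 3.58.1. Calls needed an adjusted p under 0.05 (Benjamini-Hochberg) over 16534 tested symbols. The fit was checked on simulated counts. Alternatives were other scalings (DESeq2 size factors, library size, Sertoli markers), no filter, DESeq2 1.42.0 and limma voom. Others were the compared groups alone, a replicate block, the engrafted groups with the library number range, and leaving out each library of the compared groups. Profiles used log2 CPM with a prior count of 1.

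The members and lists were chosen with earlier results of these data known. Named were all 7 members, the 2 genes with the smallest adjusted p in VCR against NC from each of 4 sheath and kinase lists, and the 2 named genes nearest in course to each member. Akap2 of the anchoring protein list was not analysed here. Exon lengths and overlaps came from GENCODE M21 and promoters from RefSeq, both GRCm38. Spermatogonial, Leydig cell, macrophage, peritubular and endothelial, and epididymal lists were also counted. In VCR against NC they rose in 6 of 10, 8 of 8, 8 of 8 and 7 of 7 genes, and 1 of 5 epididymal genes was tested and fell.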

Additional observations from a re-analysis of the deposited data

Results flagged for a closer look

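Of 35 groups of 4 libraries of a member, 2 held a library far from the others, and chance gives about 1 in 20. Spa17 was at 561 CPM in Low-VCR 2, where the other Low-VCR libraries were at 403 to 424 CPM (gap over range 0.866). Cabyr was at 197 CPM in ALL 1, where the other ALL libraries were at 174 to 178 CPM (gap over range 0.838). Of 14 tests of a difference in response between an engrafted vincristine group, set against ALL, and VCR, set against NC, 1 passed: Cabyr with low infiltration, at 2.68 on the log2 scale (adjusted p = 0.0425 by edgeR). That call was lost in a fit of these groups alone, with voom, Sertoli scaling or the replicate block, and without any of 11 single libraries, with adjusted p from 0.0504 to 0.0903.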

How the results depend on the processing

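All 7 members were called lower in VCR against NC under every alternative run, each library left out included, and 0 in ALL against NC, High-VCR against VCR and the interaction with high infiltration. In High-VCR against ALL 4 to 7 were called. The share of all genes called under each alternative is not given, so the counts in this section have no background beside them. In Low-VCR against ALL the number was 2 with DESeq2 size factors, 7 with Sertoli scaling, 5 with DESeq2 and 1 with voom. It was 7 in the compared groups alone, 1 with the replicate block and 7 in the engrafted groups with the number range term. With a library of Low-VCR or ALL left out it was 0 to 1 (1 without Low-VCR 3), and leaving out a single VCR library was not tried there. In High-VCR against Low-VCR it was 0 in the compared groups alone, 0 with the block and 3 in the engrafted groups with the number range term. With a library left out it was 0 to 1 there. In Low-VCR against VCR it was 0 in the compared groups alone and 2 to 7 with a library left out (2 without VCR 2). In the interaction with low infiltration it was 0 with Sertoli scaling, 2 with DESeq2, 0 with voom, 0 in the compared groups alone, 0 with the block and 0 to 5 with a library left out. There it was 0 without any single NC or ALL library, VCR 2, Low-VCR 1 or Low-VCR 3. The cause was not tested, except that fits of the compared groups alone, and of the engrafted groups with the number range term, use fewer libraries.

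The replicate numbers were not found to pair the samples (0 of 4 pairs over 0.1 in 5 of 7 comparisons, 2 of 4 in the other two). No paired analysis was possible with the exact test of the values relative to spermatid markers because 4 sign-flipped pairs give no p below 0.125, and a model-based paired test was not run there. Leaving out a library allows 0.0571 at best.

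Signs near 0 in ALL against NC turned: Spa17 to 0.02 with DESeq2 size factors and DESeq2, 0.08 with Sertoli scaling, 0 with voom and 0.01 in these groups alone, and Ropn1l to 0.06 and Fscb to 0.04 with Sertoli scaling. With a library left out Spa17 ran from -0.07 to 0.07, Ropn1l from -0.07 to 0.01 and Akap4 from -0.01 to 0.05 there, and Cabyr in High-VCR against VCR from -0.03 to 0.65. Akap13 in VCR against NC was -0.67 with Sertoli scaling. Relative to the round list alone Ropn1l in ALL against NC was 0.01. Relative to the elongating list alone Akap3 was -0.29 in VCR against NC and -0.07 in Low-VCR against ALL, Ropn1 -0.65 and Spa17 -0.21 in High-VCR against ALL, and Akap4 -0.01 in High-VCR against VCR. Sertoli scaling moved the median of all genes by -1.9 in VCR against NC, -1.75 in Low-VCR against ALL and -1.96 in High-VCR against ALL. Library size alone moved it by 0.39, 0.26 and 0.29. The lowest member level was that of Cabyr in VCR 1, 2.36 CPM, and Akap14 went down to 0.229 CPM in VCR.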
